A study of Drosophila melanogaster with 6 samples.

Results

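Animal mitochondria carry their own small genome and translate it with their own tRNAs, which are encoded on that genome and are separate from the cytosolic tRNA pool. In *Drosophila* many of these tRNA genes lie between the genes for respiratory chain and ATP synthase subunits and are transcribed with them in long precursor RNAs. Cleavage at both ends of a tRNA then releases it together with the flanking mRNA, an arrangement known as tRNA punctuation, and a CCA tail is added to the freed tRNA. Each tRNA has to read all codons of its group, because there is usually no second gene with the same anticodon.

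The tRNAs described here are 9 of the 22 mitochondrial tRNAs: mito:Ile-GAT, mito:Met-CAT, mito:Trp-TCA, mito:Leu-TAA, mito:Lys-CTT, mito:Asp-GTC, mito:Gly-TCC, mito:Thr-TGT and mito:Ser-TGA, named by amino acid and anticodon. They were chosen by their place in the genome, as majority-strand tRNA genes that stand alone or in pairs among the protein-coding genes, outside the cluster of 5 tRNA genes that begins with Ala and ends with Glu. The rule itself uses no measured value. All 9 were measured, among 106 tRNAs in all, of which 84 are nuclear. The remaining 13 mitochondrial tRNAs comprise the 5 of that cluster and 8 of the minority strand.

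The levels came from hydro-tRNAseq, in which limited alkaline hydrolysis breaks tRNAs into short pieces for sequencing, which lessens the block that base modifications and tight folding put on reverse transcription. Neuroblast-biased samples were whole brains of larvae in which *insc-Gal4* drives *UAS-aPKC_caax* in neuroblasts, so that these progenitors divide symmetrically and accumulate. Neuron-biased samples were whole wild-type brains of Oregon R larvae (Oregon-R-P2 in the Methods), which also hold some neuroblasts and glia. Each group had 3 samples of the third larval instar (L3), raised at 25 °C according to the sample labels (at 23 to 25 °C in the Methods) and dissected 120 h after larval hatching according to the Methods, although an earlier window is given elsewhere in the same source. The wild-type brains carried neither the Gal4 driver nor the transgene, so genotype and cell composition differed together. The table holds only tRNAs, so the make-up of the brains could not be checked with marker genes.

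For each tRNA the table gives 1 mean per group, in TMM units, that is, read counts scaled by the trimmed mean of M-values. The values below are the authors' means. Whether different tRNAs are recovered equally as reads was not tested, so shares and fold differences between tRNAs compare signal only. Values of single samples are not given there, so no spread, interval or test between the groups is reported, and the number of reads behind a mean is unknown. Change is expressed as the log2 ratio of the 2 means, neuroblast over neuron. In whole brains, fewer cells of a type, fewer mitochondria per cell and less tRNA per mitochondrion cannot be told apart.

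The 9 tRNAs were, on the whole, at higher mean levels in neuroblast-biased brains. Their summed TMM was 289871 in neuroblast-biased and 197064 in neuron-biased brains, a log2 ratio of 0.56. Of the 9, 8 had a higher mean in neuroblast-biased brains, against 43.4% of all 106 tRNAs, and the mean of the remaining 1, mito:Leu-TAA, was nearly equal in both. The median log2 ratio was 0.91, or 0.47 without the 2 tRNAs under 5000 TMM in either group, Asp-GTC and Thr-TGT. Relative to the median log2 ratio of the other mitochondrial tRNAs, 0.68, the median was 0.23 and the ratio of the sums turned to -0.12. The latter value sets a sum against a median of single ratios. Taken as a sum, the other 13 had a log2 ratio of 0.48, below the 0.56 of the 9. A log2 ratio of at least 0.5 was found for 5 of the 9 (55.6%), against 18.9% of all 106 tRNAs in the same direction, and none was lower by that size. A log2 ratio of at least 1 was found for 4 of the 9 (44.4%), against 10.4% of all tRNAs. Of the other 13 mitochondrial tRNAs, 11 had a higher mean in neuroblast-biased brains and 5 (38.5%) had a log2 ratio of at least 1.

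**Figure D1:**
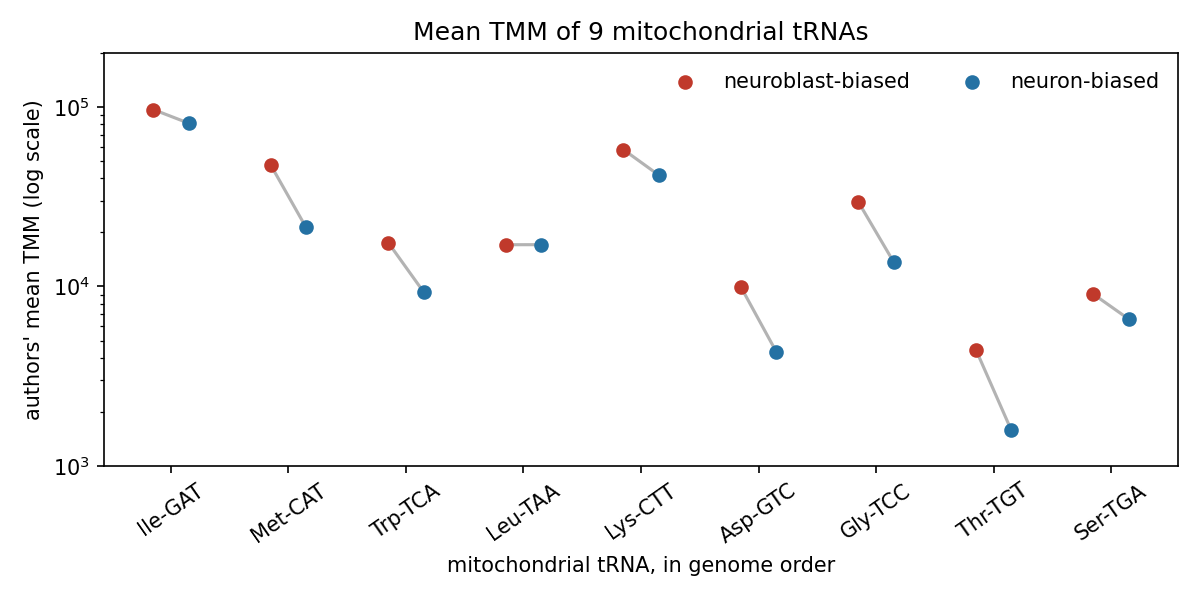
The authors' mean TMM (log scale) of the 9 mitochondrial tRNAs in genome order, with the neuroblast-biased mean on the left and the neuron-biased mean on the right of each pair, and no error bars because only group means are given. The pairs slope most for Thr-TGT and Asp-GTC and are flat for Leu-TAA.

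Ile-GAT and Met-CAT stand at the start of the numbered genome, with the minority-strand gene for Gln-TTG between them. In the Release 6 assembly with the ISO1 mitochondrial genome, *trnI* runs from 1 to 65 and *trnM* from 171 to 239, directly before *ND2*, which encodes a subunit of respiratory complex I. mito:Ile-GAT, which reads the isoleucine codons AUU and AUC, had a mean TMM of 96860 in neuroblast-biased and 81312 in neuron-biased brains. It was the most abundant of all 22 mitochondrial tRNAs per nucleotide of gene length in both groups, and its log2 ratio was only 0.25. Without division by gene length, minority-strand Val-TAC had a higher mean than Ile-GAT in neuron-biased brains, at 87399 TMM. mito:Met-CAT serves both initiation and elongation in mitochondria and reads AUA as well as AUG there. Its mean was 47469 in neuroblast-biased and 21332 in neuron-biased brains, a log2 ratio of 1.15. Met-CAT thus made up the largest part, 28.2%, of the difference between the summed means of the 9 tRNAs. The level of Ile-GAT per nucleotide was 2.17 times that of Met-CAT in neuroblast-biased brains and 4.05 times in neuron-biased brains. Gln-TTG, between them, had a log2 ratio of 0.22, close to that of Ile-GAT.

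mito:Trp-TCA follows *ND2*, from 1264 to 1329, and its gene overlaps the minority-strand gene for Cys-GCA by 8 nucleotides. In mitochondria it reads UGA, a stop codon in the cytosol, as tryptophan together with UGG. Its mean TMM was 17539 in neuroblast-biased and 9328 in neuron-biased brains, a log2 ratio of 0.91. Cys-GCA had a log2 ratio of 1.11.

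mito:Leu-TAA lies between *COX1* and *COX2*, from 3012 to 3077. It reads UUG and UUA, the leucine codon that AT-rich insect mitochondrial genomes use most. The means were 17087 in neuroblast-biased and 17101 in neuron-biased brains, which are nearly equal. The other mitochondrial leucine tRNA, Leu-TAG, which reads the CUN codons, had a log2 ratio of 1.40. Leu-TAA therefore held 46.8% of the summed TMM of the mitochondrial leucine tRNAs in neuroblast-biased brains and 69.9% in neuron-biased brains. Per nucleotide its level was 0.87 times that of Leu-TAG in neuroblast-biased brains and 2.29 times in neuron-biased brains, so the order of the 2 leucine tRNAs by their means was not the same in both groups.

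mito:Lys-CTT and mito:Asp-GTC form the only pair of members that are direct neighbours. Lys-CTT runs from 3768 to 3838, directly behind *COX2*, and Asp-GTC from 3840 to 3906, directly before *ATP8*, with 1 nucleotide between them. Lys-CTT, which reads AAA and AAG, had a mean TMM of 57947 in neuroblast-biased and 41799 in neuron-biased brains, a log2 ratio of 0.47. Asp-GTC, which reads GAU and GAC, had a mean of 9936 in neuroblast-biased and 4340 in neuron-biased brains, a log2 ratio of 1.19. The means of these adjacent genes thus stood far apart, and so did their log2 ratios. The neuron-biased mean of Asp-GTC was under 5000 TMM, however, and without a spread the difference in ratio cannot be judged. Per nucleotide, Lys-CTT exceeded Asp-GTC 5.50-fold in neuroblast-biased and 9.09-fold in neuron-biased brains, a difference in log2 ratio of -0.72 (Lys-CTT minus Asp-GTC).

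mito:Gly-TCC lies between *COX3* and *ND3*, from 5543 to 5607, and reads the GGN codons. Its mean TMM was 29539 in neuroblast-biased and 13684 in neuron-biased brains, a log2 ratio of 1.11. Ala-TGC, the first gene of the cluster behind *ND3*, had a log2 ratio of 0.31.

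mito:Thr-TGT, which reads the ACN codons, was the least abundant mitochondrial tRNA per nucleotide in both groups and had the largest log2 ratio of the 9. Its gene runs from 9838 to 9903, between *ND4L* and the minority-strand gene for Pro-TGG. The mean TMM was 4438 in neuroblast-biased and 1586 in neuron-biased brains, a log2 ratio of 1.48. Only minority-strand Tyr-GTA, at 1.70, was higher among the 22. Pro-TGG adjoins Thr-TGT without a gap on the opposite strand and its log2 ratio was below 0, at -0.22, or just above 0, at 0.048, with the median of the nuclear tRNAs set to 0. Pro-TGG was 7.19 times as abundant per nucleotide as Thr-TGT in neuroblast-biased brains and 23.4 times in neuron-biased brains.

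mito:Ser-TGA is the last of the 9, from 11638 to 11703, between *CYTB* and *ND1*, and reads the UCN codons. Its mean TMM was 9055 in neuroblast-biased and 6581 in neuron-biased brains, a log2 ratio of 0.46. The other mitochondrial serine tRNA, Ser-GCT of the cluster, had a log2 ratio of 0.63. Ser-TGA held 10.5% of the summed TMM of the mitochondrial serine tRNAs in neuroblast-biased brains and 11.7% in neuron-biased brains. That is a smaller difference between the groups than that in the leucine share of Leu-TAA.

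**Figure D2:**
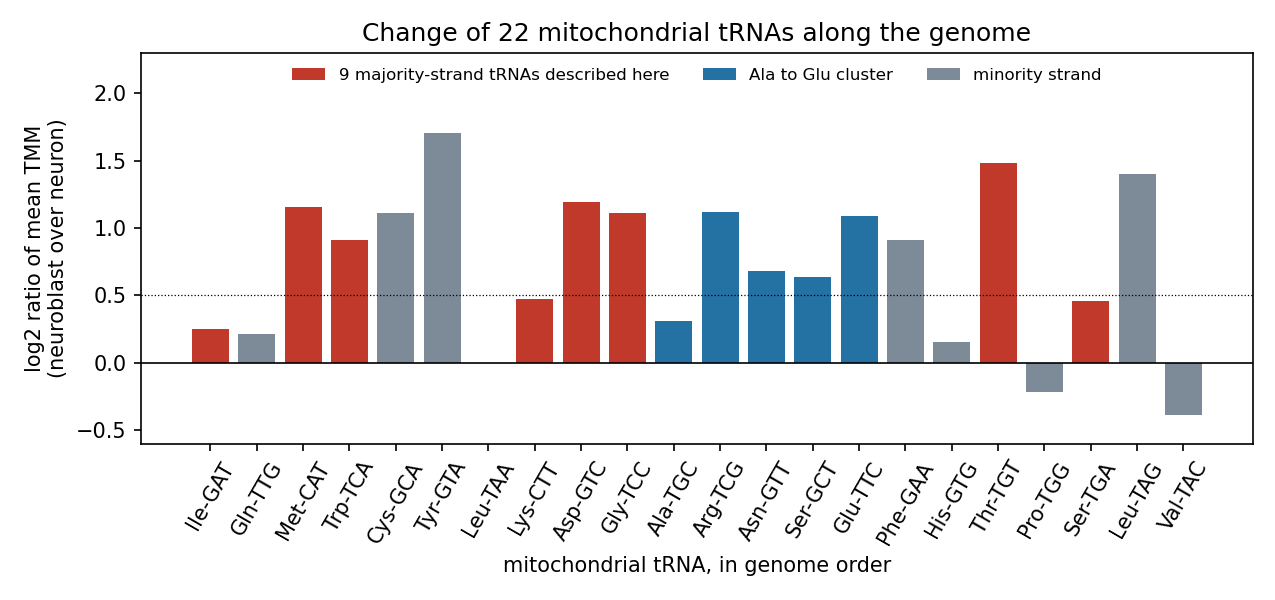
Log2 ratio of the mean TMM (neuroblast over neuron) of the 22 mitochondrial tRNAs in genome order, coloured by set, with a dotted line at 0.5. Neighbouring genes often had unlike ratios, as Lys-CTT (0.47) and Asp-GTC (1.19) or Thr-TGT (1.48) and Pro-TGG (-0.22, or 0.048 with the nuclear median set to 0). Asp-GTC and Thr-TGT had neuron-biased means under 5000 TMM, and no spread is known. Leu-TAA has no visible bar because its ratio is close to 0.

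The levels of the 9 tRNAs spanned a wide range, although their genes are all 65 to 71 nucleotides long. The highest mean was 21.8 times the lowest in neuroblast-biased brains and 51.3 times in neuron-biased brains. Per nucleotide of gene length, the order in neuroblast-biased brains was Ile-GAT, Lys-CTT, Met-CAT, Gly-TCC, Trp-TCA, Leu-TAA, Asp-GTC, Ser-TGA and Thr-TGT. In neuron-biased brains Leu-TAA came after Met-CAT, ahead of Gly-TCC and Trp-TCA, and Ser-TGA came ahead of Asp-GTC, while the first 3 and the last kept their places. Without a spread, it cannot be said which neighbours in these orders differ. Across the 9, the levels per nucleotide in the 2 groups had a Spearman's rho of 0.93, as a description of tRNAs that share libraries and a genome.

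Ile-GAT, Lys-CTT and Met-CAT together held 69.8% of the summed TMM of the 9 in neuroblast-biased brains and 73.3% in neuron-biased brains. The log2 ratio tended to be larger where the level was lower. Spearman's rho against the mean log10 level was -0.52 over the 9 tRNAs and -0.30 over the other 13 mitochondrial tRNAs. Both measures are made from the same means. Met-CAT had a high value of each, ranking 3 of 9 in level per nucleotide in both groups and 5 of 22 in log2 ratio. Position along the genome had a rho of 0.32 with the log2 ratio over the same 9 tRNAs. The sign was opposite over the other 13 mitochondrial tRNAs, at -0.34, and over all 22, at -0.12.

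The other 13 mitochondrial tRNAs had a median log2 ratio of 0.68, and 8 of them (61.5%) were higher in neuroblast-biased brains by at least 0.5. Of the 9 tRNAs, 5 lay above that median, while Lys-CTT, Ser-TGA, Ile-GAT and Leu-TAA lay below it. The 9 tRNAs described here are therefore not set apart from the rest of the mitochondrial set by these counts. They held 37.8% of the summed mitochondrial TMM in neuroblast-biased and 36.4% in neuron-biased brains. Of the difference in that sum between the groups, they account for 92806 TMM, against 134161 for the other 13. Their range of log2 ratios, from -0.0011 to 1.48, was within that of the minority-strand tRNAs, which ran from 1.70 for Tyr-GTA down to -0.39 for Val-TAC.

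**Figure D3:**
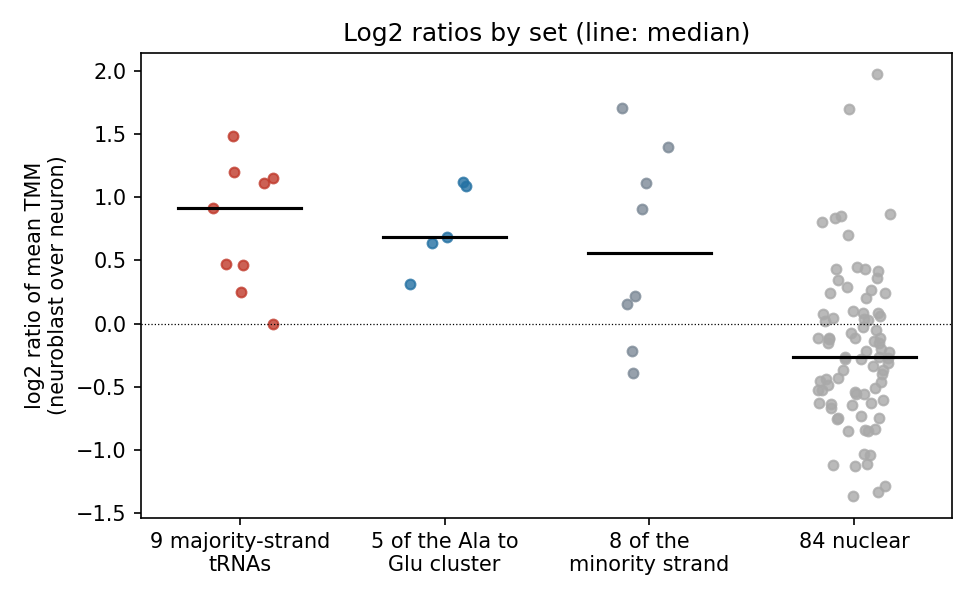
Log2 ratios of the mean TMM (neuroblast over neuron) for each tRNA of 4 sets, 1 point per tRNA, with the median as a line. The 9 majority-strand tRNAs (median 0.91) overlap the other mitochondrial sets and lie, by their medians, above the 84 nuclear tRNAs (median -0.27).

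The nuclear tRNAs had a median log2 ratio of -0.27, and all 9 tRNAs lay above it, as did 12 of the other 13 mitochondrial tRNAs and 59.4% of all 106 tRNAs. As nuclear tRNAs make up most of the table, their median is a second baseline. Measured from it, every one of the 9 was higher in neuroblast-biased brains, by between 0.27 for Leu-TAA and 1.75 for Thr-TGT. The 9 tRNAs were 2.04% of the summed TMM of all tRNAs in neuroblast-biased brains and 1.15% in neuron-biased brains.

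Each of the 9 was also set beside the nuclear tRNAs of its own amino acid, which serve the cytosol. For 8 of the 9 the mitochondrial log2 ratio was the higher one, and for 6 it was above that of every nuclear isodecoder of the amino acid. Those 6 had 2 to 5 nuclear isodecoders each, against 9 for leucine and 8 for serine, but isoleucine also had only 2. The other 13 mitochondrial tRNAs were not compared in this way, so whether the counts are particular to the 9 is unknown. The gap was widest for glycine, where Gly-TCC had a log2 ratio of 1.11 and the summed nuclear tRNAs one of -0.78, and for tryptophan, with 0.91 for Trp-TCA and -0.92 for the nuclear sum. The TMM of Trp-TCA was 37.5% of the summed TMM of the nuclear tryptophan tRNAs in neuroblast-biased brains and 10.5% in neuron-biased brains. Isoleucine was the exception. Ile-GAT and the nuclear isoleucine tRNAs had nearly the same log2 ratio, 0.25 and 0.28, and Ile-GAT was 18.1% of the nuclear sum in neuroblast-biased and 18.4% in neuron-biased brains. Ser-TGA had a log2 ratio of 0.46 and the nuclear serine sum one of 0.33, and 1 of 8 nuclear serine isodecoders exceeded Ser-TGA. For leucine, 2 of 9 nuclear isodecoders exceeded Leu-TAA, although the nuclear sum had a log2 ratio of -0.61.

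**Figure D4:**
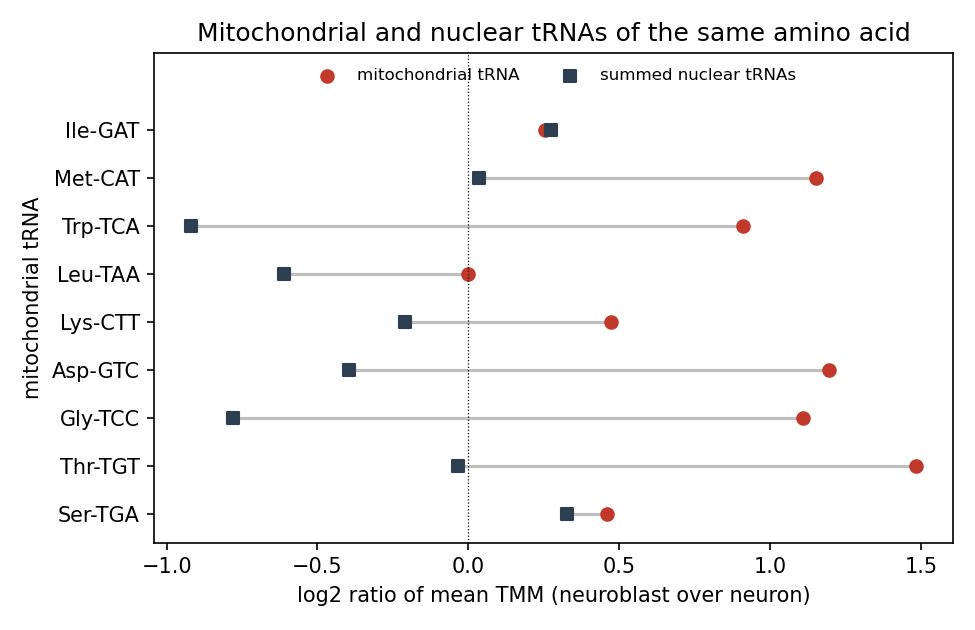
Log2 ratio of the mean TMM (neuroblast over neuron) of each of the 9 mitochondrial tRNAs (circles) and of the summed nuclear tRNAs of the same amino acid (squares, initiator Met excluded). The circle lies to the right of the square for all but Ile-GAT, with the widest gaps for Gly-TCC and Trp-TCA.

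The distance from the 3′ end of each tRNA gene to the next gene on either strand was read from the annotation. This property was picked after the values were seen and is given without a test. In 5 of the 9 genes the next gene adjoined or overlapped: Met-CAT, Trp-TCA, Asp-GTC, Gly-TCC and Thr-TGT, with log2 ratios from 0.91 to 1.48. The other 4, Ile-GAT, Leu-TAA, Lys-CTT and Ser-TGA, had 1 to 31 nucleotides before the next gene and log2 ratios from -0.0011 to 0.47. Lys-CTT, at 0.47, had only 1 nucleotide, and counting it as adjoining would extend the first class down to 0.47. Among the other 13 mitochondrial tRNAs the same split did not separate the ratios. The 6 with an adjoining or overlapping gene ranged from -0.39 to 1.12, and the 7 with a gap from 0.16 to 1.70. The next gene lies on the opposite strand for Trp-TCA and Thr-TGT in the first class and for Ile-GAT and Ser-TGA in the second.

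**Figure D5:**
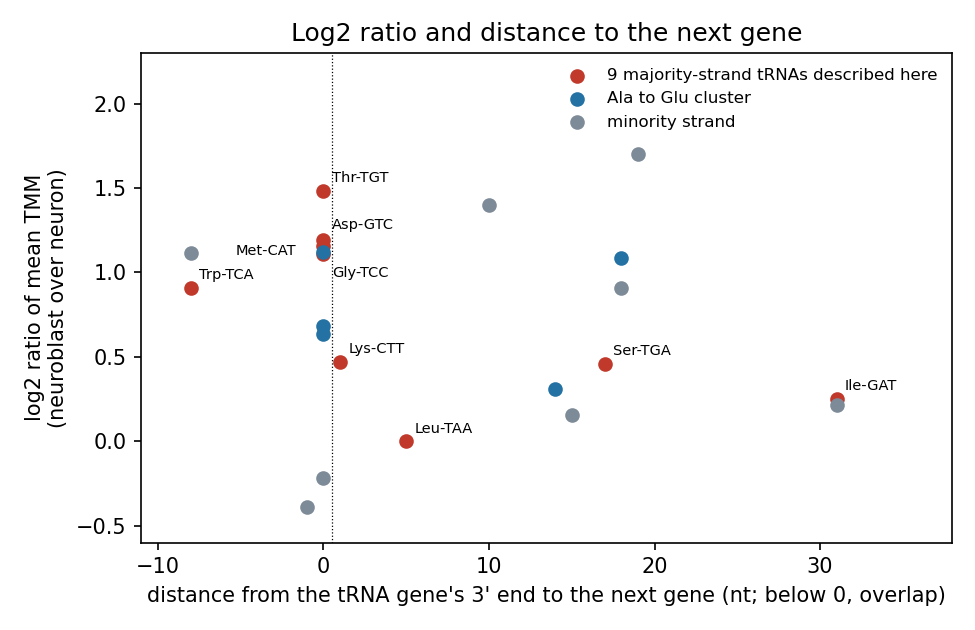
Log2 ratio of the mean TMM (neuroblast over neuron) against the distance from the 3′ end of the tRNA gene to the next gene on either strand (nucleotides, below 0 for overlap), for 22 mitochondrial tRNAs. The 9 majority-strand tRNAs split at the dotted line into ratios of 0.91 or more and of 0.47 or less, whereas the other sets do not. Lys-CTT (0.47) lies just right of the line, at 1 nucleotide, so the split depends on where the line is set.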

How the data were processed

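Hydro-tRNAseq of 3 neuroblast-biased and 3 neuron-biased samples was analysed from the deposited table. Per the study's methods, the authors trimmed reads, mapped them to collapsed mature tRNA sequences with added CCA, split multi-mapped reads and applied TMM normalization and batch correction. How the mitochondrial references were made, and what the batches were, is not given in the sources used here. The deposited values are a normalized signal, 1 mean TMM per group and tRNA, so depth and spread are unknown and the planned fits per sample could not be made. Columns with the authors' fold changes, scores, q-values and calls were not used. Log2 ratios were computed from the means without a pseudocount (Python 3.11.15, numpy 2.4.6, pandas 2.3.3, scipy 1.17.1, figures with matplotlib 3.10.9). The calculation was run on planted ratios without noise, which checks the arithmetic only.

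All 22 mitochondrial tRNAs were matched by name to RefSeq genes of Release 6 plus ISO1 MT. That table has no strand, so strand follows the known *Drosophila* gene order. Levels were divided by gene length for fold differences between named tRNAs, for ranks and for Spearman's rho of levels between the groups. Shares, sums, the range of the means and the rho of level with log2 ratio used undivided means. All 9 tRNAs are named, and other mitochondrial tRNAs where they are neighbours, share the amino acid or are the extremes. The 9 tRNAs are defined by gene position alone, but this grouping and the comparisons were chosen with earlier results of these data known. Alternatives covered the scaling, the pseudocount, a minimum TMM, the threshold of 0.5 and the denominator of shares.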

Additional observations from a re-analysis of the deposited data

How the results depend on the processing

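Only group means were given, so leaving out a replicate was not run, and the precision of each mean is unknown. No paired analysis was possible because the table holds no values per sample. Setting the nuclear median to 0 adds 0.27 to every log2 ratio. The median of the 9 tRNAs was then 1.18 and the ratio of their sums 0.82. On that scale, 8 of the 9 and 9 of the other 13 mitochondrial tRNAs passed 0.5, against 32.1% of all 106 tRNAs. Equal summed TMM over all tRNAs gave the same values. Relative to the median of the other mitochondrial tRNAs, the median was 0.23. On this scale, 2 of the 9 and 2 of the other 13 passed 0.5, against 5.66% of all 106. The ratio of the sums changed sign to -0.12. That sign change sets a sum against a median of single ratios. The summed TMM of the other 13 had a log2 ratio of 0.48, below that of the 9. Pseudocounts of 100 and 1000 TMM gave medians of 0.90 and 0.84 and left 5 tRNAs past 0.5. A minimum mean of 5000 TMM in both groups removed Asp-GTC and Thr-TGT, with a median of 0.47, a ratio of sums of 0.53 and 3 tRNAs past 0.5. The same minimum averaged over both groups gave a median of 0.69 and a ratio of sums of 0.55. A threshold of 0.25 was passed by 8 tRNAs. For this threshold, the pseudocounts and the minimum, the matching share of all 106 tRNAs was not computed, so these counts have no background. With the minimum in both groups, the share in the mitochondrial sum was 36.9% in neuroblast-biased and 35.9% in neuron-biased brains. Without a minimum, the 9 tRNAs were 2.04% of the summed TMM of all tRNAs in neuroblast-biased and 1.15% in neuron-biased brains.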
